A study of Arabidopsis thaliana with 6 samples.

Results

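The 4 transcripts described here are QQS (AT3G30720, QUA-QUINE STARCH), AT1G75945, AT3G01345 and AT2G15020. They were picked by name from the 32833 genes of the count table because of their large differences between seedlings of the GIGANTEA mutant gi-2 and wild-type Col-0. Their levels in the 2 genotypes are therefore given as a description, with no test. QQS and AT1G75945 were high in gi-2 and near the limit of detection in Col-0. AT3G01345 and AT2G15020 were high in Col-0 and low in gi-2, where AT2G15020 was still detected in every library.

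RNA came from whole Arabidopsis thaliana seedlings 7 d old, grown at 22 °C in days of 8 h light and 16 h dark, and frozen at ZT0, when the lights come on. The groups were the accession Col-0 with no other genetic change named and the gi-2 mutant, with 3 libraries each, every library a pool of 40 to 60 seedlings. gi-2 is a single allele of GI, a clock-associated protein that acts in photoperiodic flowering, and no rescued line or other allele was analysed here. The labels do not say that the pools were grown on separate days, and each p-value therefore reflects only how these pools varied. In pooled seedlings, fewer cells of a type and less RNA per cell cannot be told apart.

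QQS is known as an orphan gene, that is, a gene with no recognisable relative outside Arabidopsis thaliana. Its small protein lowers leaf starch and raises protein content when it is abundant, and it binds NF-YC4, a subunit of the trimeric NF-Y transcription factors. The QQS gene is also known for varying naturally in level with the DNA methylation of repeats at its start, being on where methylation is lost and silent where it is kept. RefSeq gives the other 3 genes the product name uncharacterized protein, and no role is given to them here beyond that.

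The genes differed in form and in surroundings, which the choice of members did not use. All positions are those of TAIR10, with gene models from RefSeq's TAIR10.1. QQS lies on chromosome 3 at 12349047 to 12349933 on the plus strand, with 3 exons in a transcript of 684 nucleotides and a protein of 59 residues. Only 1.70% of 27444 annotated proteins are shorter. AT1G75945 lies on chromosome 1 at 28515245 to 28515916 on the minus strand and has 2 exons, a transcript of 461 nucleotides and a protein of 61 residues, with 1.86% of proteins shorter. The genes that were high in gi-2 are thus the 2 with very short proteins.

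AT3G01345 lies on chromosome 3 at 129138 to 130749 on the plus strand and AT2G15020 on chromosome 2 at 6491425 to 6493512 on the minus strand. Each is annotated with 1 exon, in transcripts of 1612 and 2088 nucleotides that encode 466 and 526 residues. No other annotated gene overlaps any of the 4, so the lack of strand in these libraries does not mix their reads with those of an annotated antisense gene. QQS stands among pseudogenes, which make up 15 of the 20 nearest annotated genes and 20 of the 25 within 50 kb on either side. Around AT2G15020, 10 of the 20 nearest genes are pseudogenes, and around AT1G75945 and AT3G01345 none of the 20 is, against 12.8% of the 37899 nuclear genes.

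The coding sequence of QQS, from RefSeq's TAIR10.1 genome, is shown whole, since the gene is known for its small protein. It is read from chr3:12349461-12349478 joined to chr3:12349565-12349726 on the plus strand, 180 bases in all, with the start and stop codons in capitals and 59 codons before the stop.
QQS coding sequence: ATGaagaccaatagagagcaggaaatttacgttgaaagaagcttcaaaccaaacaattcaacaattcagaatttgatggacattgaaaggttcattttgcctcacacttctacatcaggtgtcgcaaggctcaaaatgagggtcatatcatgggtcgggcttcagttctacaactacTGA

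The stretches before each gene's start are shown next, since binding sites of clock regulators are most often sought just before a gene's start and since that is where the repeats of QQS lie. They are 5′ to 3′ on the gene's own strand, at chr3:12348797-12349046 for QQS, chr1:28515917-28516166 for AT1G75945, chr3:128995-129137 for AT3G01345 and chr2:6493513-6493762 for AT2G15020. Each holds 250 bases except that of AT3G01345, which is given for the 143 bases that separate it from AT3G01340. Capitals mark words of 9 or more bases that occur more than once in the same printed stretch.
QQS upstream: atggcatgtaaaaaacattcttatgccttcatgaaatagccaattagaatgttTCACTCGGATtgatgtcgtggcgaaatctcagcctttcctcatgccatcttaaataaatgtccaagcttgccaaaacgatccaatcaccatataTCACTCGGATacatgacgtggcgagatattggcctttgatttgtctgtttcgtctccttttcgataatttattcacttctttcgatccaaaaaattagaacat
AT1G75945 upstream: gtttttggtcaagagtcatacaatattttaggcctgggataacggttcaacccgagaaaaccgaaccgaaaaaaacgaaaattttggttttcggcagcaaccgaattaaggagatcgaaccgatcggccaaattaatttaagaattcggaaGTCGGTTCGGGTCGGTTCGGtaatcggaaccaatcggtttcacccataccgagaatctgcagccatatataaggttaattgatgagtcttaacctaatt
AT3G01345 upstream: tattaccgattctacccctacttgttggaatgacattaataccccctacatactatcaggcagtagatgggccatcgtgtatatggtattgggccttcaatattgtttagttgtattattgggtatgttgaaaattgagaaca
AT2G15020 upstream: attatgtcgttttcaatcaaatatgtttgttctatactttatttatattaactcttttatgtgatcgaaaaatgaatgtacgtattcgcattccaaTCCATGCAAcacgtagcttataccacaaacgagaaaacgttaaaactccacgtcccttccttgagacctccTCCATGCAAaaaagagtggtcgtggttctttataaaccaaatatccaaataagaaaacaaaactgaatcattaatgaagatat

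The longest exact repeat before QQS is 10 bases long, with copies beginning 197 and 103 bases before the start. The repeat goes on past those 10 bases with mismatches: over 37 bases the copies share 30. They are set side by side with the shared bases in capitals.
QQS copy 1: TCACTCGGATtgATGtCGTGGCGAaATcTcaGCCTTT
QQS copy 2: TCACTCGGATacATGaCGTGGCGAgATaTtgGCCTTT
Before AT1G75945 a word of 10 bases, GTCGGTTCGG, stands in tandem, with copies beginning 99 and 89 bases before the start. Before AT2G15020 the word TCCATGCAA begins 154 and 83 bases before the start. Exact repeats of this size are common: 28.5% of 27443 stretches of 250 bases before annotated genes hold a repeat of 10 or more bases, and 48.1% hold a repeat of 9 or more.

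Motifs known from clock and light regulation were searched on both strands of the 250 bases before each gene. These windows were not cut at other genes, and 107 of the 250 bases before AT3G01345 lie in AT3G01340. None of the 4 holds an evening element (AAAATATCT), a CCA1-binding site (AAAAATCT), a G-box (CACGTG), a PBE-box (CACATG) or a morning element (CCACAC). These are held by 2.36%, 6.69%, 6.49%, 11.1% and 6.17% of all such stretches. The letters TATAAA of a TATA box occur before AT2G15020, at 209, 55 and 53 bases, and before none of the other 3, against 47.4% of all stretches. The matches at 55 and 53 bases overlap, and only that at 53 bases is on the gene's own strand. In 1000 bases, the CCA1-binding site occurs before QQS, beginning 320 bases upstream, and before AT3G01345, beginning 269 bases upstream (21.2% of all). The site before AT3G01345 lies within AT3G01340, past the 143 bases between the 2 genes. The morning element occurs before QQS at 823 bases (23.2% of all), while the evening element, the G-box and the PBE-box occur before none of the 4. A missing match says only that these letters are not in the window.

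Between 18739317 and 23617717 reads were counted per library, and a floor of 3 counts equalled 0.126 to 0.166 CPM (reads scaled to a common effective library size). GI transcript itself was counted in every library, with 183, 210 and 139 reads in the gi-2 libraries and 68, 59 and 53 reads in the Col-0 libraries, in the order of replicates 1, 2 and 3, and these reads do not tell whether protein is made from the allele. Across all 19699 genes tested, 45.3% had genotypes whose libraries did not overlap, and 32.6% passed an adjusted p of 0.05 (edgeR quasi-likelihood test), 16.3% as higher and 16.2% as lower in gi-2. All 4 genes described here passed the low-count filter, each through the genotype in which it is high, and none overlapped between genotypes, which is what they were chosen for. GI was among the genes called (log2 ratio of gi-2 to Col-0, 1.37, SE 0.21; edgeR adjusted p = 0.000168). Shoot markers were present in all libraries, with a summed level of 59950 to 66710 CPM over 3 genes in the mutant and 56660 to 60920 in the wild type (1 higher, 2 lower). LHCB1.3 made up most of this sum, at 52160 ± 2506 CPM in the mutant and 41120 ± 1009 CPM in the wild type. RBCS1A had the reverse order at 8892 ± 863 and 13050 ± 1451 CPM, as did LHCB2.1 at 2454 ± 153 and 4090 ± 99.6 CPM. Root markers summed to 2298 to 2455 CPM over 5 genes in the mutant and 3539 to 3962 in the wild type (1 higher, 1 lower). PYK10, a root beta-glucosidase gene, made up most of that sum, at 2249 ± 73.5 CPM in the mutant and 3705 ± 240.1 CPM in the wild type, while CASP1, of the Casparian strip, had the reverse order at 56.7 ± 5.63 and 38.4 ± 1.29 CPM. Of 12 seed storage and oil body markers, 5 passed the low-count filter and all 5 were higher in gi-2, while CRU2 was at 0 in every library. Summed, they reached 24.7, 361 and 62.0 CPM in the gi-2 libraries and 1.16, 6.28 and 10.9 CPM in the Col-0 libraries. The part of these marker differences in the levels below was not tested.

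Reads of QQS numbered 97, 106 and 95 in the gi-2 libraries and 11, 4 and 3 in the Col-0 libraries, given here and below in the order of replicates 1, 2 and 3. In CPM these are 4.40, 4.44 and 4.75 in gi-2 and 0.609, 0.196 and 0.152 in Col-0. The gi-2 libraries lay close together and all far above Col-0, with no overlap. QQS averaged 4.53 ± 0.195 CPM in the mutant against 0.319 ± 0.252 CPM in the wild type (SD over 3 libraries, here and below). Its log2 ratio was 3.83 (SE 0.42), at rank 19 among the 9888 genes with a positive value. The ratio of scaled counts was 14.6, with an exact 95% interval from counting error only of 9.09 to 25.0. Leaving out Col-0 replicate 1 moved the log2 ratio to 4.65. Replicate 1 was the highest of the Col-0 libraries, with a counting interval of 0.304 to 1.09 CPM against 0.0535 to 0.503 CPM in replicate 2 and 0.0313 to 0.443 CPM in replicate 3.

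AT1G75945 had 118, 109 and 111 reads in the gi-2 libraries and 0, 0 and 1 in the Col-0 libraries. The gi-2 levels were 5.35, 4.56 and 5.55 CPM, and the single Col-0 read equals 0.0505 CPM. It was therefore present in every gi-2 library and at or under the detection limit in every Col-0 library. The mean in gi-2 was 5.16 ± 0.524 CPM, and a count of 0 in Col-0 replicates 1 and 2 allows levels of up to 0.166 and 0.147 CPM by the floor of 3 counts, and of up to 0.204 and 0.181 CPM by the exact 95% interval. Over the groups 338 reads stood against 1, and the scaled ratio was 298 (counting interval 53.2 to 11820). The only read came from Col-0 replicate 3, and when that library was left out the gene was at least 65.7-fold higher in the mutant, with the floor set at 3 reads for the whole Col-0 group.

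Reads of AT3G01345 numbered 11, 12 and 0 in the gi-2 libraries and 576, 597 and 334 in the Col-0 libraries. The Col-0 levels were 31.9, 29.3 and 16.9 CPM against 0.499, 0.502 and 0 CPM in gi-2. Every Col-0 library lay above every gi-2 library, and replicate 3 was the lowest of each genotype. In gi-2 replicate 3 the count of 0 allows a level of up to 0.150 CPM by the floor of 3 counts, and of up to 0.185 CPM by the exact 95% interval. AT3G01345 averaged 0.334 ± 0.289 CPM in the mutant against 26.0 ± 8.03 CPM in the wild type. Its log2 ratio was -6.20 (SE 0.40), at rank 2 among the 9811 genes with a negative value. Col-0 exceeded gi-2 by a ratio of 74.2 (counting interval 49.3 to 117). The gap among Col-0 libraries was beyond counting error, since the interval of replicate 3, 15.1 to 18.8 CPM, lies under those of replicate 1, 29.4 to 34.6 CPM, and replicate 2, 27 to 31.8 CPM.

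Reads of AT2G15020 numbered 7, 49 and 28 in the gi-2 libraries and 545, 686 and 606 in the Col-0 libraries. In CPM it stood at 0.318, 2.05 and 1.4 in gi-2 and at 30.2, 33.7 and 30.6 in Col-0. The Col-0 libraries were close to each other and the gi-2 libraries, all lower, were spread. AT2G15020 averaged 1.26 ± 0.876 CPM in the mutant against 31.5 ± 1.90 CPM in the wild type. Its log2 ratio was -4.63 (SE 0.30), at rank 7 among those with a negative value. Col-0 exceeded gi-2 by a ratio of 24.8 (counting interval 19.9 to 31.2). In gi-2, replicate 1 lay below the others beyond counting error, at 0.128 to 0.654 CPM against 1.52 to 2.71 CPM in replicate 2 and 0.931 to 2.03 CPM in replicate 3. The gi-2 libraries had the same order for AT2G15020 as for the summed seed storage markers given above. CRA1 made up most of that sum, at 13.6, 261 and 46.2 CPM. Of the 5 markers tested, CRA1, CRU3 and OLEO1 had this order, while OLEO2 and SESA5 did not. Of those not tested, OLEO4 had this order, at 5, 15 and 7 reads. SESA1, SESA2 and SESA3 were highest in replicate 1, and CRB and SESA4 had reads in no other gi-2 library. Without replicate 2, the library with the highest sum, the log2 ratio of AT2G15020 was -5.23. The part of seed transcript in the spread of AT2G15020 was not tested.

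**Figure D1:**
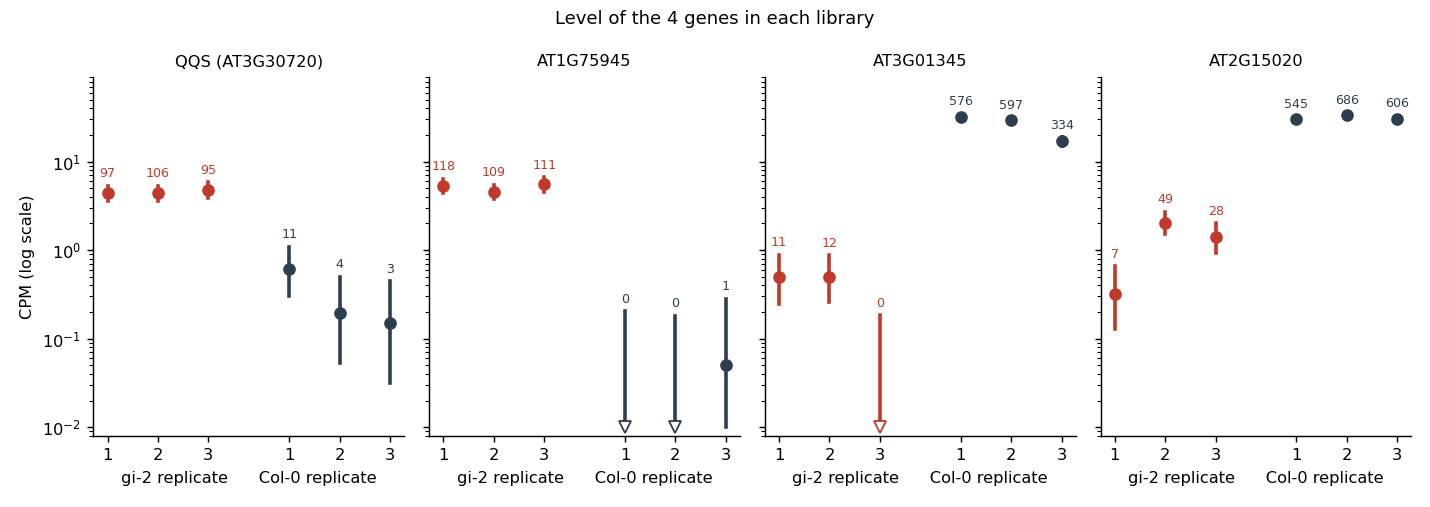
Level of the 4 genes in each of the 6 libraries, in CPM on a log axis, with gi-2 in red and Col-0 in dark blue. Bars are exact 95% Poisson intervals for counting error, numbers are read counts, and open triangles at the bottom edge stand for a count of 0. QQS and AT1G75945 lie at 4.40 to 5.55 CPM in gi-2, above every Col-0 library, and AT3G01345 and AT2G15020 lie at 16.9 to 33.7 CPM in Col-0, above every gi-2 library.

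Per length, the levels can be compared between genes. In gi-2, AT1G75945 stood at 11.2 ± 1.14 CPM per kb and QQS at 6.59 ± 0.283 CPM per kb, above 59.9% and 45.3% of the tested genes, while AT2G15020 at 0.602 ± 0.419 and AT3G01345 at 0.207 ± 0.179 CPM per kb were above 5.48% and 0.569%. In Col-0 the order was AT3G01345 at 16.2 ± 4.98, AT2G15020 at 15.1 ± 0.910, QQS at 0.465 ± 0.367 and AT1G75945 at 0.0365 ± 0.0633 CPM per kb (SD, n = 3). AT3G01345 and AT2G15020 did not differ beyond their spread in either genotype. In the genotype where each is high, these are middling levels: AT3G01345 and AT2G15020 in Col-0 lay above 70.4% and 68.6% of genes. None of the 4 was an abundant transcript.

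Spread between replicates of a genotype was not itself used to choose the genes, but a choice for genotypes that do not overlap can favour a small spread. It is given as the SD of log2 CPM (prior count 2) and as a percentile among the genes with an average level within 0.5 log2 units. QQS had an SD of 0.0600 in gi-2, above 3.36% of 1814 like genes, and of 0.810 in Col-0, above 95.4% of them. AT3G01345 varied widely in both genotypes, with an SD of 1.52 in gi-2 and 0.497 in Col-0, above 99.9% and 98.1% of 3386 genes. AT2G15020 had an SD of 1.25 in gi-2, above 99.9% of 3455 genes, but 0.0854 in Col-0, above 19.7%. AT1G75945 had 0.148 in gi-2 and 0.350 in Col-0, above 17.4% and 53.2% of 1873 genes. The like genes share the average over all libraries, not the level in either genotype. A high percentile where a gene is low therefore includes the larger counting error of few reads. A low percentile where it is high likewise includes the smaller counting error of more reads.

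No protein related to QQS or AT1G75945 was found among the annotated Arabidopsis proteins at an expectation value under 0.001. AT3G01345 had 6 related proteins, of which 4 are named beta-galactosidase related in RefSeq, and the best match, AT5G28919, shared 53.1% identity over 194 residues. Of these 6 genes, 5 had 0 counts in every library. The other, AT5G35760, had 13, 12 and 5 reads in the mutant and 0, 17 and 4 in the wild type, so its libraries overlapped (log2 ratio 0.34, SE 0.84; edgeR adjusted p = 0.795). The locus of AT3G01345 also had 34 further matches in the genome, 6 of them of 500 or more nucleotides on 4 chromosomes, with identities of 65.3% to 76.5%. None reached 95% identity over 50 nucleotides, nor did any match of the other 3 genes.

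AT2G15020 had 2 relatives, both with the RefSeq product name neuronal PAS domain protein. AT5G64190, at 27% identity over 463 residues, had 61, 54 and 52 reads in the gi-2 libraries and 5, 9 and 25 in the Col-0 libraries. It was higher in every gi-2 library, the opposite of AT2G15020, with means of 2.54 ± 0.258 and 0.661 ± 0.528 CPM (log2 ratio 1.92, SE 0.48; edgeR adjusted p = 0.00638). Without Col-0 replicate 3, its highest Col-0 library, the log2 ratio was 2.79. AT2G40390, at 26.8% identity, overlapped between genotypes (log2 ratio -0.06, SE 0.38; edgeR adjusted p = 0.933).

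The neighbours on the chromosome were not used to choose the 4 genes. Among the 10 genes of the count table on each side of each of the 4, 80 in all, 28 passed the low-count filter. Of these 7 were higher and 2 lower in gi-2, 32.1% called against the background of 32.6%, with a median log2 ratio of 0.00 in both. A further 33 had no count in any library.

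Most counted genes around QQS had few or no reads. The annotated genes next to it, the pseudogenes AT3G30722 and AT3G30724 at 340 and 445 bases, are not in the count table. Of 20 counted neighbours 12 had no count, and 1 was tested. That gene, ERD5, encodes a proline dehydrogenase and lies 98702 bases away. ERD5 averaged 211 ± 31.5 CPM in the mutant against 88.9 ± 12.5 CPM in the wild type and rose by 1.25 on the log2 scale (SE 0.11; edgeR adjusted p = 1.71e-06). The nearest counted gene before QQS, the long non-coding RNA gene AT3G06065, had 0 counts throughout. The nearest after it, GDU6, a gene of the glutamine dumper family, had 0 counts in gi-2 and 6, 0 and 2 in Col-0.

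AT1G75945 stands between ATA27, which had 0 counts in every library, and SKP1, a subunit of SCF ubiquitin ligases. SKP1, 602 bases away on the other strand, averaged 238 ± 6.70 CPM in the mutant against 211 ± 15.5 CPM in the wild type. It did not pass the test (log2 ratio 0.17, SE 0.08; edgeR adjusted p = 0.0933) but did so without Col-0 replicate 1 (edgeR adjusted p = 0.00863). Of 9 tested neighbours, the GDSL-type lipase gene AT1G75900 rose by 1.65 (SE 0.24; edgeR adjusted p = 0.000104). The Alba-type nucleic acid-binding protein gene AT1G76010 fell by 0.25 (SE 0.07; edgeR adjusted p = 0.0148), but did not pass on leaving out gi-2 replicate 1 (0.0530) or gi-2 replicate 2 (0.0548).

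AT3G01345 starts 143 bases from AT3G01340, a WD40 repeat protein gene read from the other strand. While AT3G01345 was far lower in gi-2, AT3G01340 rose slightly, from 61.7 ± 2.41 CPM in Col-0 to 76.8 ± 2.91 CPM in gi-2 (log2 ratio 0.32, SE 0.08; edgeR adjusted p = 0.00489). On the other side AT3G00995, a long non-coding RNA gene, had 0 counts. Among 9 tested neighbours, CFM2, a chloroplast RNA splicing factor gene, fell by 0.39 (SE 0.07; edgeR adjusted p = 0.000801). AT3G01400, an ARM repeat protein gene, rose by 0.30 (edgeR adjusted p = 0.0229), a call lost without gi-2 replicate 1 (0.0791), gi-2 replicate 2 (0.108) or Col-0 replicate 2 (0.106).

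The genes of the count table nearest to AT2G15020 are AT2G15025, at 0 counts in every library, 7613 bases away, and the thionin gene AT2G15010, 6211 bases away. AT2G00590, an annotated RNA gene that the count table does not hold, lies closer, at 834 bases. AT2G15010 had 37 counts in gi-2 replicate 2 and 1 count in Col-0 replicate 3, and 0 elsewhere. Of 9 tested neighbours 3 rose and none fell, 33.3% called against 32.6% of all genes. Those 3 lie 39748 to 86072 bases away. AT2G14900, a gibberellin-regulated family gene, rose by 1.45 (SE 0.10; edgeR adjusted p = 1.40e-07), and KCS8, of very-long-chain fatty acid synthesis, rose by 1.27 (SE 0.10; edgeR adjusted p = 2.66e-07). RLP19, a receptor-like protein gene, rose by 0.63 (SE 0.18; edgeR adjusted p = 0.0128) but did not pass without gi-2 replicate 1 (0.0749) or gi-2 replicate 3 (0.0639).

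**Figure D2:**
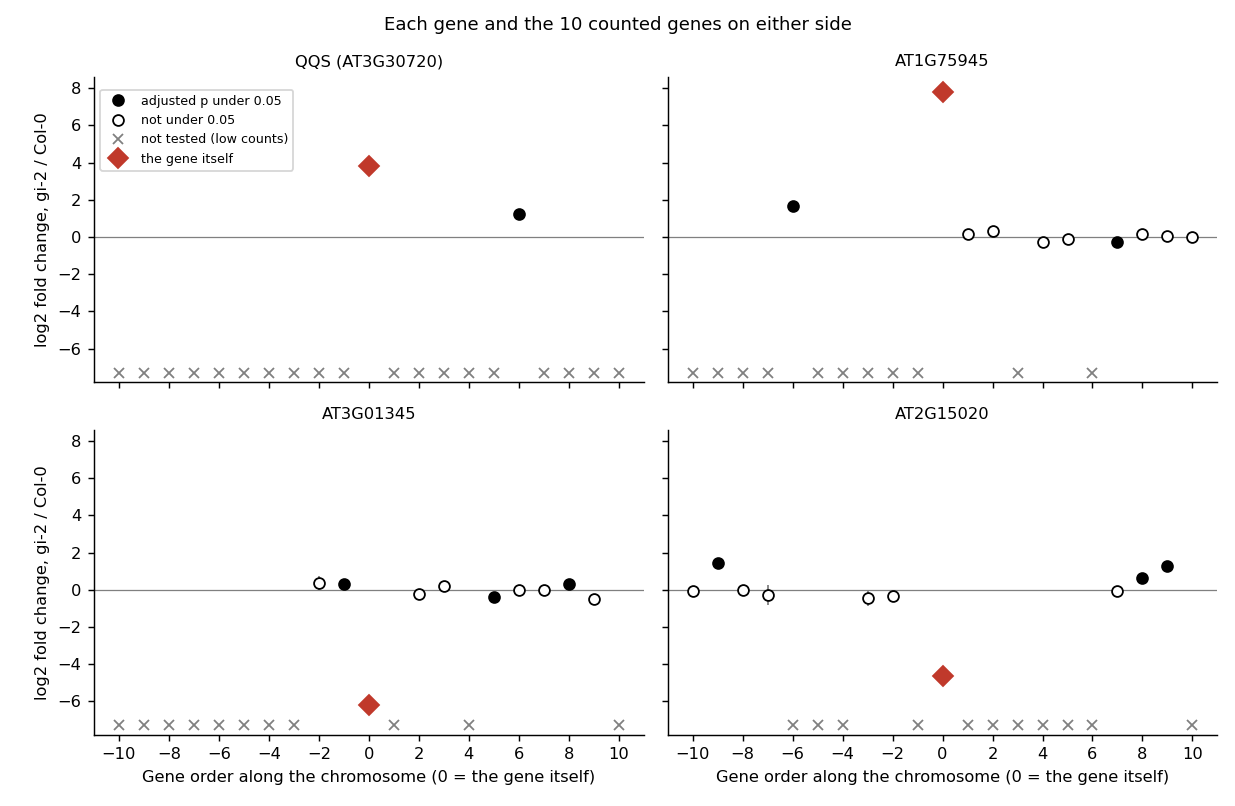
Log2 ratio (log2 fold change, gi-2 over Col-0) of each of the 4 genes, as a red diamond, and of the 10 counted genes on either side in chromosome order, with bars for the SE of the neighbours. Filled circles have an adjusted p under 0.05, and crosses at the bottom edge are genes with too few counts to test, with no value on the vertical axis. The fitted value of AT1G75945 depends on the prior count. The tested neighbours lie between -0.52 and 1.65.

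Genes of the pathways that QQS is known for were read next. Of 12 starch synthesis genes, all tested, 3 were up and 7 down in gi-2, 83.3% called against 32.6% of all genes, with a median log2 ratio of -0.30. GBSS1, the granule-bound synthase that makes amylose, fell by 2.37, from 291 ± 11.6 CPM in Col-0 to 56.2 ± 5.24 CPM in gi-2 (edgeR adjusted p = 3.16e-10). The soluble starch synthase genes SS3 and SS2 fell, with log2 ratios of -0.83 and -0.84 (edgeR adjusted p = 3.79e-06 and 3.95e-06). The members that rose were SS4, which acts in starting granules, the branching enzyme gene SBE2.1 and the debranching enzyme gene ISA1, with log2 ratios of 0.67, 0.65 and 0.33. These 3 were named after their values were seen, and ISA1 did not pass on leaving out any 1 library other than Col-0 replicate 2 (edgeR adjusted p = 0.0527 to 0.152). These transcripts are no measure of starch content.

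The NF-Y subunits include the known partner of QQS. NF-YC4, the subunit that QQS binds, averaged 20.9 ± 0.778 CPM in the mutant against 18.3 ± 2.24 CPM in the wild type and did not pass the test (log2 ratio 0.19, SE 0.12; edgeR adjusted p = 0.227), except without Col-0 replicate 1 (edgeR adjusted p = 0.0445). Of 29 subunit genes 23 were tested, and 3 were higher and 1 lower, 17.4% called against 32.6% of all genes, with a median of 0.06. The count ran from 1 to 5 on leaving out 1 library. NF-YB2, a histone-fold subunit of flowering control, fell by 0.68 (SE 0.09; edgeR adjusted p = 5.51e-05). NF-YB8 and NF-YA7 rose by 0.55 and 0.44 (edgeR adjusted p = 0.0210 and 0.0367), and NF-YA5, named after its value was seen, by 1.75 from 0.284 CPM (edgeR adjusted p = 0.0472). The call of NF-YB8 was lost without gi-2 replicate 1 (0.0670), gi-2 replicate 3 (0.0671) or Col-0 replicate 3 (0.0823). Those of NF-YA7 and NF-YA5 were lost on leaving out any 1 library (0.0513 to 0.184 and 0.0645 to 0.215) and with DESeq2 (0.0528 and 0.0641). Of the 4 subunits called, only NF-YB2 stayed past the threshold in each alternative run.

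Of 27 genes of DNA methylation and silencing, 26 were tested, and 1 was higher and 3 lower, 15.4% called against 32.6% of all genes, with a median log2 ratio of -0.08. CMT2, a methyltransferase for cytosines outside CG pairs, fell by 0.58 (SE 0.10; edgeR adjusted p = 0.000623). AGO4, the Argonaute of RNA-directed DNA methylation, fell by 0.49 (SE 0.10; edgeR adjusted p = 0.00214), and CMT3, named after its value was seen, by 0.40 (edgeR adjusted p = 0.0387). The call of CMT3 was lost without gi-2 replicate 1, 2 or 3 or Col-0 replicate 1 (0.0871 to 0.143) and with DESeq2 (0.0512). The demethylase gene DME rose by 0.26 (edgeR adjusted p = 0.0293), a call lost without gi-2 replicate 1 (0.138), gi-2 replicate 3 (0.0979), Col-0 replicate 2 (0.0887) or Col-0 replicate 3 (0.112). MET1, which keeps methylation at CG pairs, and DDM1, a chromatin remodeller needed for it, stood at log2 ratios of -0.17 and -0.47 and did not pass (edgeR adjusted p = 0.218 and 0.0842). DDM1 passed without Col-0 replicate 3 (edgeR adjusted p = 0.0154). Both were named after their values were seen. DNA methylation itself was not measured.

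**Figure D3:**
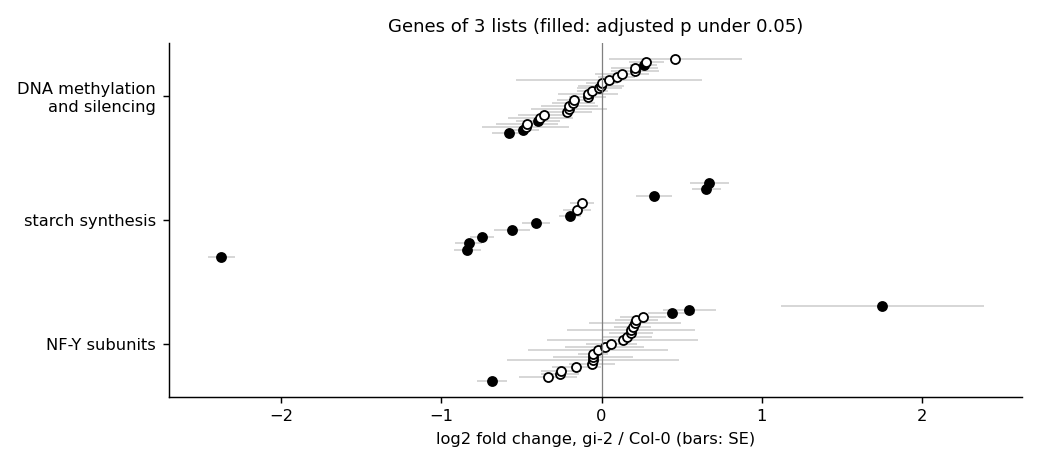
Log2 ratios (log2 fold changes, gi-2 over Col-0) of the tested genes of 3 lists, 1 point per gene with its SE, ordered within each list. Filled points have an adjusted p under 0.05: 10 of 12 starch synthesis genes, 4 of 23 NF-Y genes and 4 of 26 genes of DNA methylation and silencing.

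The 4 genes belong to broader classes of the annotation. Genes with the product name uncharacterized protein and no gene symbol, without the 3 described here, numbered 2658, of which 946 were tested, with 162 higher and 109 lower (28.6% called against 32.6% of all genes) and 1136 at 0 in all libraries. Those with the smallest adjusted p were AT1G65490, AT2G33250 and AT5G55620, which fell, with log2 ratios of -2.85, -1.37 and -1.58. Of genes for proteins of at most 100 residues, without the 2 described here, 682 of 2142 were tested, with 84 higher and 107 lower (28.0% called against the same 32.6%). Those with the smallest adjusted p all rose: AT2G15960, annotated as stress-induced, by 2.05, RCI2A, a cold- and salt-responsive membrane protein gene, by 1.68, and the metallothionein gene MT2A by 1.44. Among the 100 tested genes with the largest absolute log2 ratio, 9 were of the uncharacterized class, which makes up 4.82% of tested genes, and 6 were of the short class, which makes up 3.47%. These counts include 3 and 2 of the genes described here, respectively.

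The genes most like each of the 4 over the 6 libraries were found by the root mean square difference of centred log2 CPM among 17122 genes, as a description that rests mostly on the difference between genotypes. Nearest to QQS was AT3G21320, annotated as an early flowering protein, at a distance of 0.35, followed by AT1G11210 and AT4G35720 at 0.42 and 0.44. AT3G21320 had 72, 89 and 74 reads in the mutant and 8, 5 and 5 in the wild type, nearly the counts of QQS. Nearest to AT1G75945 were IRT3, a ZIP-type metal transporter gene, at 0.38, FAR1, a fatty acyl reductase gene, at 0.82, and the cell wall gene XTH15 at 0.90. IRT3 had 991, 998 and 962 counts in gi-2 and 6, 12 and 27 in Col-0.

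AT3G01345 and AT2G15020 had neighbours in common in this measure. Nearest to AT3G01345 were CYP79F1, which encodes an enzyme of aliphatic glucosinolate synthesis, at 0.99, the Dof-type transcription factor gene AT1G26790 at 1.20 and AT2G15020 itself at 1.5. Nearest to AT2G15020 were AT1G26790 at 0.62, CYP79F1 at 0.79 and SQP1, a squalene monooxygenase-like gene, at 0.86. CYP79F1 had 14, 17 and 10 counts in gi-2 and 519, 543 and 295 in Col-0, so it shared with AT3G01345 the low value of Col-0 replicate 3. AT1G26790 had 0, 5 and 3 counts in gi-2 and 267, 199 and 219 in Col-0, and shared with AT2G15020 the order of the gi-2 libraries. Counts so near the floor of 3 do not settle that order.

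**Figure D4:**
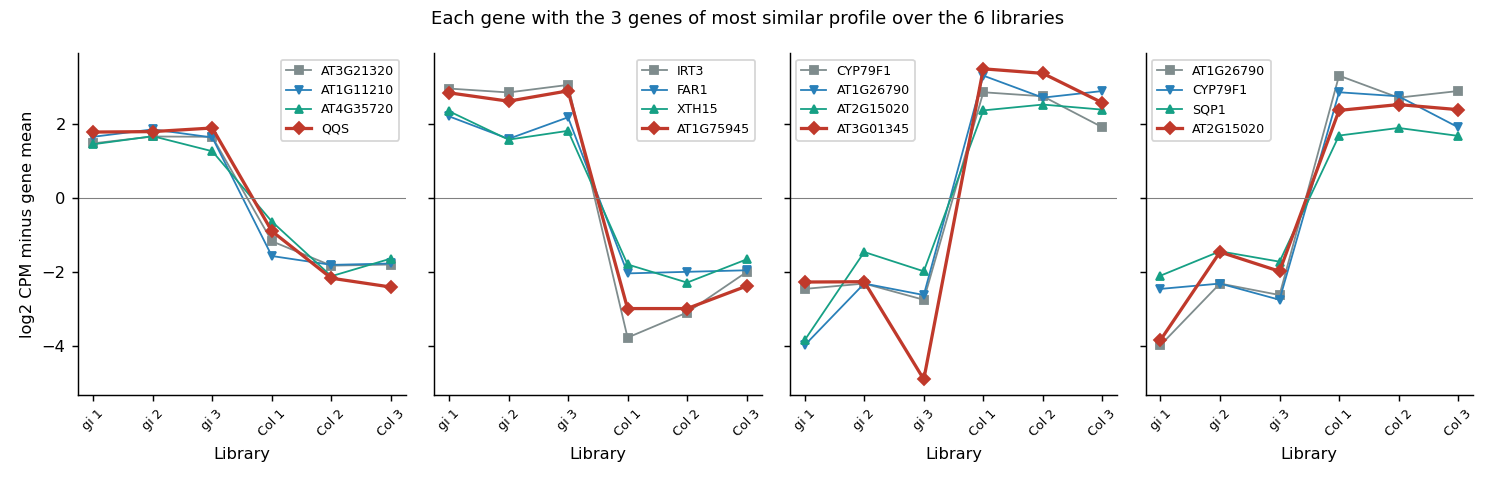
Log2 CPM (prior count 2) minus the gene's mean over the 6 libraries, for each of the 4 genes in red and the 3 genes of most similar profile. Points are single libraries, and values at a count of 0 depend on the prior count. The likeness is closest for QQS, at 0.35 to 0.44, and loosest for AT3G01345, at 0.99 to 1.5.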

How the data were processed

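The table deposited by the authors gives 1 unscaled count of reads for each gene in 6 libraries. STAR 2.5.5, HTSeq 0.6.1, DESeq2 and TAIR10 are named, per the submitters' processing notes. Libraries were non-directional, per the labels' protocols. For strand and multi-mapping, settings were not given in the sources used here. In 24 rows the annotation fields were shifted. Their positions were taken from RefSeq, their lengths were left out, and their counts were read from the same columns as in the other rows. The 4 genes and all lists were chosen with earlier results of these data known.

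One edgeR 4.0.16 fit (R 4.3.3; TMM, filterByExpr with minimum count 10 and total 15, quasi-likelihood F test, genotype the only term) covered all genes, with Benjamini-Hochberg adjustment over 19699 and a threshold of 0.05. It was tested on simulated data. Log2 ratios are of gi-2 to Col-0 and their SEs are those implied by the F statistic. CPM is TMM-scaled. Intervals are exact at 95%, and intervals and floors cover counting error only. Replicate pairs differed beyond sampling noise (chi-square per degree of freedom 4.96 to 15.6). Alternatives were DESeq2 1.42.0, RLE scaling, no filter, a replicate block, a prior count of 0.5 (0.125 in the fit), other class widths and leaving out libraries.

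Sequences and gene models are RefSeq's TAIR10.1, where 32508 of 32524 nuclear genes of the table have identical ends. BLAST 2.17.0 found relatives. The uncharacterized class was planned by the product name hypothetical protein, which this annotation does not use, and was read as uncharacterized protein without a symbol.

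Named were the 4 genes, GI, NF-YC4, the nearest counted gene on each side, and up to 3 called neighbours per gene with the smallest adjusted p. From each list and class up to 3 called genes with the smallest adjusted p were named, and for each of the 4 the 3 genes of nearest profile. Relatives were named as found.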

Additional observations from a re-analysis of the deposited data

How the results depend on the processing

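The 4 genes were chosen for genotypes that do not overlap, so leaving out a library could change only the size of their differences. Leaving out 1 library gave log2 ratios of 3.50 to 4.65 for QQS, -6.61 to -5.69 for AT3G01345 and -5.23 to -4.17 for AT2G15020, and ratios from at least 65.7 up to 317 for AT1G75945, which has no value here for DESeq2, no filter, the block or the prior. With both Col-0 replicate 1 and gi-2 replicate 2 left out, a choice made after seeing the data, QQS stood at 4.67. All-gene calls ran from 4910 to 6687 on leaving out 1 library. NF-Y calls fell from 4 to 2 with DESeq2 and ran from 1 to 5 on leaving out 1 library, and silencing calls from 2 to 4. With 5 neighbours on each side, 2 of 11 tested were called, against 9 of 28 with 10 on each side. With proteins of at most 60 residues, 33 of 102 were called, against 191 of 682 with at most 100. The narrower classes hold fewer genes by construction. Against 32.6% of all genes, the share called was lower with 5 neighbours on each side and close with at most 60 residues. The causes of these shares and of the other shifts were not tested. Replicate numbers did not pair the samples (correlation of deviations 0.00207 to 0.0156 for equal numbers). With the replicate block, 6161 genes were called in place of 6413, and QQS stood at 3.88. Under the block the calls of CMT3 (edgeR adjusted p = 0.0505) and NF-YA5 (0.0601) were also lost, and that of no other gene named here; NF-YA5 was lost without the filter too (0.0666). The relatives AT5G35760 and AT2G40390, not called, changed sign: on leaving out 1 library they ran from -0.21 to 2.04 and from -0.25 to 0.15, and AT5G35760 stood at -0.29 with both libraries left out. The counts behind QQS and AT1G75945 in Col-0 and AT3G01345 in gi-2, 0 to 12 per library, limit how precisely their ratios are known.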
